A study of Triticum aestivum with 4 samples.

Results

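The gene LOC100049018, synonym rbcl, names the large subunit of Rubisco, and 28 of the 61115 wheat probe sets on the array carried that gene in the platform annotation. All 28 were taken, whatever their signal. They were read in whole young seeds of bread wheat (Triticum aestivum) taken 5 days after anthesis, from RL4452 and AC Domain, which are the parents of a mapping population. Each genotype had 2 arrays, named as biological replicates, and the labels name no treatment. Both parents grew in the field beside 39 lines of the population, in rows 1.47 m long, with 3 field replications and a lattice of 49 entries. A tube filled with seeds gave the RNA of a sample, which was enriched for poly(A) tails before labelling, so that a value describes all seed tissues together. In such samples fewer cells of a type and less RNA per cell cannot be told apart.

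Rubisco fixes carbon dioxide in the Calvin cycle. Its large subunit carries the active site and is encoded by rbcL in the chloroplast genome of plants, while the small subunits come from nuclear RBCS genes. Green cells of the pericarp photosynthesise in young cereal grains, and the endosperm does so little. Chloroplast transcripts mostly lack long, stable poly(A) tails, and plant nuclear genomes hold copies of chloroplast DNA.

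The annotation only partly bore out a chloroplast origin. RefSeq's gene table, made on IWGSC CS RefSeq v2.1, listed LOC100049018 with the synonym rbcl as a protein-coding gene on a nuclear chromosome. That table held 67 mitochondrial genes and 0 genes placed on a chloroplast genome. RNA from the chloroplast gene and from a nuclear copy cannot be told apart in these values, and the probe sets are called rbcl probe sets here after the synonym. The 28 probe sets were built on 27 source sequences, and 2 of them, TaAffx.128414.15.S1_at and TaAffx.128414.15.S1_x_at, shared 1. The gene had more probe sets than any other of the 771 named genes, the next having 10, and the median being 1. Their IDs placed 24 in the transcript cluster TaAffx.128414 and 1 each in Ta.24976, Ta.3807, Ta.14567 and TaAffx.128896.

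Most of the rbcl probe sets were dim, and 2 were the brightest on the array. Intensities are given on the log2 scale. Background was taken as 4.48, the 95th percentile of 23 negative control probe sets over the 4 arrays, whose highest value was 4.93. Of the 28 rbcl probe sets, 6 lay above 4.48 on all 4 arrays, 1 on 3 arrays, 3 on 1 array and 18 on none. The 6 were 21.4% of the rbcl probe sets, while 53.7% of all wheat probe sets lay above background on all 4 arrays. Per array, 7 were above background on RL4452 replicate 1 and 7 on RL4452 replicate 2, against 8 on AC Domain replicate 1 and 8 on AC Domain replicate 2. Only 4 lay above the highest negative control on every array.

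TaAffx.128414.1.A1_x_at had 14.55 and 14.57 in RL4452, against 14.66 and 14.61 in AC Domain. Ta.24976.1.S1_x_at, from another cluster, had 14.58 and 14.51 in RL4452, against 14.66 and 14.61 in AC Domain. Both RL4452 arrays lay just below both AC Domain arrays for each probe set. They were the 2 brightest wheat probe sets by mean, and on each of the 4 arrays they held ranks 1 and 2. As deposited, on the linear scale, TaAffx.128414.1.A1_x_at had 23987 and 24269 in RL4452, against 25900 and 25092 in AC Domain. The 2 probe sets differed from each other by at most 0.053 on any array. Both carry the suffix _x_at, which marks probe sets with probes that can also match other sequences, so that the gene behind this signal is less certain than for a suffix of _at. The number of wheat probe sets with a mean above 14 was 7, and the deposited table has no flag for saturated spots.

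TaAffx.128414.181.S1_at and TaAffx.128414.196.S1_at followed at a mean of 7.94 and 7.74, the brighter of them 6.65 below the second brightest. TaAffx.128414.181.S1_at had 8.05 and 7.79 in RL4452, against 8.27 and 7.66 in AC Domain, and the genotypes overlapped. TaAffx.128414.196.S1_at had 7.83 and 7.97 in RL4452, against 7.78 and 7.39 in AC Domain, with both RL4452 arrays above both AC Domain arrays. The remaining 2 above background on all arrays were close to it. TaAffx.128414.15.S1_x_at had 4.80 and 5.44 in RL4452, against 4.72 and 4.82 in AC Domain, with RL4452 replicate 1 below AC Domain replicate 2. Ta.3807.1.A1_at had 4.72 and 4.55 in RL4452, against 5.21 and 5.14 in AC Domain. Its RL4452 arrays lay below the highest negative control and its AC Domain arrays above it.

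The other 22 rbcl probe sets had means from 2.80 to 4.87, with a median of 3.43. TaAffx.128414.130.S1_at was the brightest of them, with 4.94 and 4.46 in RL4452, against 5.35 and 4.75 in AC Domain. Its RL4452 replicate 2 value was the only 1 of the 4 under 4.48. TaAffx.128414.146.S1_at, chosen after its values were seen, had 4.08 and 4.47 in RL4452, against 4.58 and 4.09 in AC Domain, and passed background on AC Domain replicate 1 alone. TaAffx.128414.53.S1_at was the dimmest, with 2.74 and 2.71 in RL4452, against 2.86 and 2.88 in AC Domain. Its difference was -0.14 (limma, adjusted p = 0.838), with both RL4452 arrays below both AC Domain arrays. On all 4 arrays 11 of the rbcl probe sets lay below 3.55, the median of the negative controls. Grouped in steps of 0.5 log2 units, 6 of the 28 means fell between 2.5 and 3, 5 between 3 and 3.5, 6 between 3.5 and 4, 3 between 4 and 4.5 and 4 between 4.5 and 5. None lay between 5 and 7.5, 2 lay between 7.5 and 8, and the last 2 between 14.5 and 15, a step that held 2 wheat probe sets in all. The mean level of the 28 probe sets ranged over 11.80 log2 units, with an SD of 3.06 across probe sets. Among the 17 genes with at least 5 probe sets, the level range was wider in 0 and the SD larger in 6, and the median range was 6.67. A range grows with the number of probe sets, and differences of brightness between probes enter it, so that these figures describe probes and not amounts of transcript.

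The IDs split the levels unevenly. Of the 4 probe sets with the suffix _x_at, 3 were above background on all arrays, and their levels ran from 3.92 to 14.60. Of the 23 with the suffix _at, 3 were above it, with levels from 2.80 to 7.94. The single _s_at probe set, TaAffx.128896.17.S1_s_at, had a mean of 3.00. Of the 4 with the letter A before the last number of the ID, 2 were above background on all arrays, and of the 24 with the letter S, 4 were. The probe set pair with 1 source sequence differed by suffix alone. TaAffx.128414.15.S1_x_at was above TaAffx.128414.15.S1_at on every array, by 0.36 and 0.25 in RL4452, against 0.36 and 0.76 in AC Domain.

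Some cluster mates were brighter than the rbcl probe sets beside them. The cluster TaAffx.128414 held 59 probe sets, of which 35 had no name here. Of these 35, 11 (31.4%) were above background on all arrays, against 4 of the 24 (16.7%) with the rbcl name, and their means ran from 2.65 to 12.16. Ta.14567.2.S1_at, an rbcl probe set, had 3.52 and 4.16 in RL4452, against 3.18 and 3.93 in AC Domain, all below background. The other 2 probe sets of its cluster, which have no name here, had means of 9.87 and 7.91. TaAffx.128896.17.S1_s_at also lay below background, with 2.92 and 2.79 in RL4452, against 3.02 and 3.26 in AC Domain, while 10 of the other 16 probe sets of its cluster were above it on all arrays. Among the 35 unnamed probe sets of TaAffx.128414 the genotype difference had a median of -0.05 and ran from -1.22 to 0.79. Limma called 0 of the 35 (1 with an unadjusted p below 0.05, smallest adjusted p = 0.232), against 0.800% of all wheat probe sets. Their replicate 2 minus replicate 1 ran from -2.32 to 1.39 in RL4452 and from -1.11 to 0.40 in AC Domain. Among the other 16 of TaAffx.128896 it ran from -3.60 to 0.93 in RL4452 and from -0.61 to 0.90 in AC Domain. The genotype difference of these 16 ran from -1.81 to 0.62, and limma called 0.

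The genotypes were compared to ask whether rbcl signal differed between the parents. With limma on all 61115 wheat probe sets, 0 of the 28 rbcl probe sets passed an adjusted p of 0.05, and the smallest adjusted p was 0.422. The share called over all wheat probe sets was 0.800% (0.224% with RL4452 higher and 0.576% with it lower), so that a count of 0 among 28 is near that share. Before adjustment limma put 1 of 28 under 0.05, lower in RL4452, against 9.16% of all probe sets (5.42% lower in RL4452). RL4452 had the higher mean in 10 of the 28 (35.7%), against 58.4% of all probe sets. The median difference, RL4452 minus AC Domain, was -0.05 over the 28 rbcl probe sets and 0.05 over all wheat probe sets. Single differences ran from -0.54 to 0.60. The arrays of the genotypes did not overlap in 10 of 28 (35.7%), against 39.9% of all probe sets. RL4452 lay above AC Domain in 3 of these (24.0% of all probe sets) and below it in 7 (15.9% of all probe sets).

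For the 2 brightest probe sets the genotype difference was small beside its limma standard error, 0.16 for each. That error draws partly on the variances of all wheat probe sets, and was above the SDs of these 2 probe sets' own arrays. In each of the 2 the genotype difference was larger than both replicate differences. TaAffx.128414.1.A1_x_at averaged 14.56 ± 0.01 (SD, n = 2) on the RL4452 arrays and 14.64 ± 0.03 (SD, n = 2) on those of AC Domain. The difference was -0.08 (95% interval -0.49 to 0.33; limma, adjusted p = 0.918), and was -0.011 after quantile normalisation and -0.14 after median centring. Ta.24976.1.S1_x_at averaged 14.55 ± 0.05 (SD, n = 2) on the RL4452 arrays and 14.63 ± 0.03 (SD, n = 2) on those of AC Domain. Its difference was -0.09 (95% interval -0.50 to 0.32; limma, adjusted p = 0.909) and became 0.011 after quantile normalisation. RMA gives the probes of arrays normalised together 1 distribution, but which arrays those were is not stated. What that does to values at the top of the distribution was not tested. The median absolute difference of the 32823 wheat probe sets above background on all arrays was 0.24. Among the 7 wheat probe sets with a mean above 14, these 2 included, it was 0.079, and 71.4% of the 7 differed by less than 0.1. A small difference is therefore not particular to the rbcl probe sets at this brightness.

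Ta.3807.1.A1_at had the lowest p of the rbcl probe sets. It averaged 4.63 ± 0.12 (SD, n = 2) on the RL4452 arrays and 5.17 ± 0.05 (SD, n = 2) on those of AC Domain. The difference was -0.54, or 1.46-fold brighter in AC Domain, with a 95% interval of -0.97 to -0.11 that was not adjusted for the number of probe sets (limma, unadjusted p = 0.0231, adjusted p = 0.422). It was -0.50 within replicate number 1 and -0.59 within replicate number 2. Its RL4452 values lay between 4.48 and 4.93, among the brightest of the negative controls. The interval left out 0 in this probe set alone, and it lay within 1 log2 unit of 0 in 22 of the 28. Of those 22, 17 were not above background on all arrays, where values near the negative controls can understate a difference. The same share over all wheat probe sets was not counted, so that 22 of 28 does not show equal rbcl signal in the parents.

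TaAffx.128414.181.S1_at had a difference of -0.05 (95% interval -0.73 to 0.62; limma, adjusted p = 0.976), which was 0.068 after quantile normalisation. TaAffx.128414.196.S1_at had 0.31 (95% interval -0.21 to 0.84; limma, adjusted p = 0.716), made of 0.05 within replicate number 1 and 0.58 within replicate number 2. TaAffx.128414.15.S1_x_at had 0.35 (95% interval -0.32 to 1.01; limma, adjusted p = 0.745), made of 0.08 and 0.61. The values of its partner TaAffx.128414.15.S1_at were 4.44 and 5.19 in RL4452, against 4.36 and 4.06 in AC Domain. That was the largest difference among the 28, 0.60 (95% interval -0.17 to 1.37; limma, adjusted p = 0.645). It was 0.08 within replicate number 1 and 1.13 within replicate number 2, with only the RL4452 replicate 2 array above background. TaAffx.128414.130.S1_at had -0.35 (limma, adjusted p = 0.772).

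These differences leaned on single arrays. TaAffx.128414.130.S1_at was -0.047 without AC Domain replicate 1 and -0.65 without AC Domain replicate 2. TaAffx.128414.15.S1_at was 0.23 without RL4452 replicate 2 and 0.98 without RL4452 replicate 1, and TaAffx.128414.15.S1_x_at was 0.030 without RL4452 replicate 2 and 0.66 without RL4452 replicate 1. TaAffx.128414.196.S1_at was 0.12 without AC Domain replicate 2 and 0.51 without AC Domain replicate 1.

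Among the 6 probe sets above background on all arrays, 2 were higher and 4 lower in RL4452, with a median difference of -0.07 (0.039 after quantile normalisation). The median over all 28 was -0.11 within replicate number 1, where 7 were higher in RL4452, and 0.10 within replicate number 2, where 15 were. The run files put the arrays of replicate number 1 in one project and those of replicate number 2 in another, and 16 of 28 rbcl probe sets (57.1%) kept their sign in both, near the 60.0% of all wheat probe sets that did. For RL4452 replicate 2 the fluidics run was recorded as aborted, with 0 wash settings listed, against 16 for each other array. Without that array the median difference over the 28 was -0.04. Above background on all remaining arrays were 7 instead of 6, and at a fixed level such a count cannot fall when an array is dropped.

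In most rbcl probe sets a difference between replicates was as large as that between genotypes. The genotype difference was larger than both replicate differences in 6 of 28 rbcl probe sets (21.4%), against 27.7% of all wheat probe sets. Replicate 2 minus replicate 1 ran from -0.47 to 1.15 in RL4452, with a median of 0.03, and from -0.61 to 1.07 in AC Domain, with a median of -0.08. TaAffx.128414.229.A1_x_at had the largest replicate difference. Its values were 3.20 and 4.35 in RL4452, against 3.53 and 4.60 in AC Domain, so that the replicate 2 array was higher in both genotypes, by 1.15 and 1.07. Its genotype difference was -0.29 (95% interval -1.64 to 1.06; limma, adjusted p = 0.909). Ta.14567.2.S1_at was also higher on the replicate 2 arrays, by 0.63 in RL4452 and 0.75 in AC Domain, with a genotype difference of 0.28 (limma, adjusted p = 0.852). The replicate difference had the same sign in both genotypes in 16 of 28 (57.1%), against 60.6% of all probe sets. It stayed under 0.3 in both genotypes in 11 of 28, among them both of the brightest. Of those 11, 8 were not above background on all arrays, and the share over all wheat probe sets was not counted.

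Other genes of photosynthesis were found by name for 9 probe sets of 6 genes, of which 7 were above background on all arrays. RL4452 had the higher mean in 6 and the lower in 3, with a median of 0.04, and limma called 0 of them (0 with an unadjusted p below 0.05, smallest adjusted p = 0.753). Over all wheat probe sets limma called 0.800%, and 9.16% had an unadjusted p below 0.05. A count of 0 among 9 is near those shares. PsbO (LOC543291), a subunit of the oxygen-evolving complex of photosystem II, had 12.81 and 12.22 in RL4452, against 12.73 and 12.48 in AC Domain. PsbP (LOC543290), of the same complex, had 12.34 and 11.74 in RL4452, against 12.11 and 11.98 in AC Domain. Both overlapped between the genotypes, with differences of -0.09 and -0.0038. A second PsbP probe set, TaAffx.120874.1.S1_x_at, had 10.11 and 8.08 in RL4452, against 9.26 and 8.61 in AC Domain.

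The petC gene, for the Rieske iron-sulfur protein of the cytochrome b6f complex, had 12.38 and 12.37 in RL4452, against 12.18 and 12.18 in AC Domain. Its difference of 0.19 (limma, adjusted p = 0.768) had no overlap between the genotypes, and a second petC probe set lay below background with 0.04. PRK (LOC543283), phosphoribulokinase, which remakes the substrate of Rubisco, had 10.95 and 10.97 in RL4452, against 11.02 and 11.31 in AC Domain, a difference of -0.21 with no overlap (limma, adjusted p = 0.787). FBP, a fructose-bisphosphatase, had 0.24 and 0.26 on its 2 probe sets (limma, adjusted p = 0.753 and 0.760), the first without overlap. Altogether 3 of the 9 probe sets did not overlap, petC and FBP with RL4452 above and PRK with RL4452 below. Of all wheat probe sets 39.9% did not overlap (24.0% with RL4452 above and 15.9% with it below), so that such a count does not set these genes apart. LOC543415, which carries the synonym atpA beside IVR1, a name of invertases, lay below background with a difference of 0.025. The search gave no probe set named for the small subunit of Rubisco.

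Among 940 probe sets of other named genes, those nearest in pattern to the rbcl probe sets above background belonged to LOC543425, LOC100049032, LOC542936, LOC100037633 and LOC542981. LOC542981 is WMAI-1, a monomeric alpha-amylase inhibitor, and the others have no descriptive name. The pattern was the mean of the 6 rbcl probe sets after taking off each probe set's own mean. This pattern read -0.03 and 0.02 on the RL4452 arrays, against 0.10 and -0.08 on the AC Domain arrays. The root mean square difference from it over the 4 arrays was 0.016 for LOC543425, the nearest, and 0.041 for LOC542981, the fifth. With unnamed probe sets counted, 207 of 32817 above background were at least as near as the fifth, and the 6 rbcl probe sets themselves were 0.057 to 0.293 away, so that the likeness is to a nearly flat pattern.

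Median intensity per array was 33.7 and 33.4 in RL4452, against 32.5 and 31.9 in AC Domain. Probe sets of core histones were above background in 18 of 18, those of PsbO and PsbP in 3 of 3, those of endosperm starch and storage proteins in 6 of 19, those of late embryogenesis proteins in 3 of 10 and those of the anther gene RAFTIN in 1 of 4. The summed intensity of the 3 PsbO and PsbP probe sets, as markers of green tissue, was 13457 and 8456 in RL4452, against 11809 and 10127 in AC Domain, with the genotypes overlapping. That of the 19 endosperm probe sets was 4960 and 4335 in RL4452, against 3300 and 3427 in AC Domain. Of these 19 limma called 1 between the genotypes, against 0.800% of all wheat probe sets. A sum of intensities weighs the brightest probe sets of a list most. That of the 18 core histone probe sets was 58776 and 67078 in RL4452, against 51572 and 52092 in AC Domain. The endosperm and histone sums were higher on both RL4452 arrays, while the late embryogenesis sums (219 and 301 in RL4452, against 229 and 211 in AC Domain) and the anther sums (82.6 and 88.7 in RL4452, against 87.7 and 74.9 in AC Domain) overlapped. Of single wheat probe sets 24.0% also had both RL4452 arrays above both AC Domain arrays, so that this order alone does not set a list apart. The part of these markers in the rbcl differences was not tested. The control for 18S rRNA, which like chloroplast RNA mostly lacks poly(A) tails, had intensities of 191 and 432 in RL4452, against 2586 and 1914 in AC Domain, a difference of -2.95 on the log2 scale. The differences of the 2 brightest rbcl probe sets on the same arrays were -0.08 and -0.09, and whether rRNA left in the samples bears on the rbcl values was not tested. The 3' minus 5' difference was largest on the RL4452 replicate 2 array in all 7 controls that have one. For G6PDH it was 1.52 and 3.60 in RL4452, against 2.19 and 2.19 in AC Domain, and for sucrose synthase 4.69 and 6.66 in RL4452, against 6.11 and 6.53 in AC Domain. For GAPDH it was -2.32 and -1.20 in RL4452, against -1.63 and -1.72 in AC Domain. The array with the aborted run thus stood at one end of this measure, and its part in the replicate differences of the rbcl probe sets was not tested.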

How the data were processed

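Each of 4 samples was hybridised to its own wheat GeneChip, per the labels. The deposited probe set intensities were made with RMA, as the submitters' processing notes name it without a version. No source used here says which arrays were normalised together. The intensities ran from 4.74 to 25900 on a linear scale and were taken to log2 with no further scaling. The deposited run files served for project and wash record only. Of 61290 probe sets 175 were controls and left out. The other 61115 went into limma 3.58.1 (R 4.3.3; lmFit, eBayes, two-sided) with genotype as the factor and a Benjamini-Hochberg threshold of 0.05. Precision is limited by the number of arrays, with 2 residual degrees of freedom, and 2 arrays against 2 allow no exact permutation p under 0.333. The eBayes step adds 2.97 prior degrees of freedom, taken from the variances of all wheat probe sets. A p-value or interval therefore does not rest on the spread of its own probe set alone. Nothing says how the biological replicates were separated, so the spread between these samples may be technical. The fit was tested on simulated data, where it recovered only changes of the largest size simulated, and not all of those.

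The platform annotation gave 1273 probe sets exactly 1 gene, and 770 of its 771 genes were found in RefSeq's table for IWGSC CS RefSeq v2.1, whose coordinates were not used. No sequence was used here. Same-numbered arrays, which share a project in the run files, deviated together (r = 0.398 over all probe sets, a description across features), but the labels do not make the number a batch. The text names each rbcl probe set above background on all arrays and, of the others, the 2 with the largest genotype difference, the 2 with the largest replicate difference, the dimmest and the brightest. Further ones were chosen after their values were seen. Members and gene lists were chosen with earlier results of these data known. Alternatives were median centring, quantile normalisation, a replicate block, a filter on dim probe sets, an intensity trend, other background levels and each array left out.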

Additional observations from a re-analysis of the deposited data

How the results depend on the processing

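The count of rbcl probe sets that passed was 0 in the 10 alternatives run, with 0 to 3 at an unadjusted p under 0.05 in limma, and that of the other photosynthesis probe sets was 0 in the 9 run. The count over all wheat probe sets was 489, and 0 to 1031 when 1 array was left out: 0 without AC Domain replicate 1 or 2 (2999 and 2441 at an unadjusted p under 0.05), 1031 without RL4452 replicate 1 and 998 without RL4452 replicate 2. The spread then comes from 1 genotype alone, and the lone array of the other is assumed to vary like it. With the replicate block 667 passed, 0 of them rbcl, and the smallest adjusted p among the rbcl probe sets was 0.309 (limma), and the block changed no call on an rbcl or other photosynthesis probe set. The number of rbcl probe sets above background was 6, and 13 with the median of the negative controls as the level, 4 with the highest negative control, and 3 of 23 with the suffix _at alone (chosen after seeing the data). It was 6 or 7 when 1 array was left out, where fewer arrays have to pass, so that at a fixed level the count cannot fall. The median difference of the 28 ran from -0.078 to 0.040 when 1 array was left out, and that of the 6 above background from -0.11 to 0.099, with 0.039 after quantile normalisation, -0.07 with the highest negative control (4 probe sets) and -0.05 with the suffix _at alone (3 probe sets). Median centring gave -0.11 for the 28 and -0.13 for the 6. For the 11 probe sets named by the rule, 9 of 118 alternative differences had the other sign, and none of those with a test passed. Ta.24976.1.S1_x_at was 0.011 after quantile normalisation, a value that its rank on each array fixed, so that this change of sign carries no information on the genotypes. TaAffx.128414.181.S1_at was 0.068 after quantile normalisation, 0.12 within replicate number 2, 0.25 with AC Domain replicate 1 left out and 0.079 with RL4452 replicate 2 left out, and ran from -0.36 to 0.25 when 1 array was left out. Ta.14567.2.S1_at was -0.090 with AC Domain replicate 1 left out and -0.032 with RL4452 replicate 2 left out, in a range of -0.090 to 0.66. TaAffx.128414.229.A1_x_at was 0.25 without AC Domain replicate 2 and 0.28 with RL4452 replicate 1 left out, in a range of -0.87 to 0.28. The cause was not tested. Values near the negative controls can understate a difference, and 2 arrays per genotype left intervals of the single differences up to 2.69 log2 units wide.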
